A study of Mus musculus with 4 samples.

Results

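The clustered protocadherin genes were examined in mouse embryonic stem cells (mESCs), WT or labelled as *Spen* knockout (KO). Members were the rows of the count table whose GENCODE vM1 symbol belongs to the alpha, beta or gamma protocadherin cluster on chromosome 18. The rule found 25 of 37310 rows, with 2 in the alpha cluster, 22 in the beta cluster and 1 in the gamma cluster. RNA-seq had been done on 2 libraries of HATX WT mESCs and 2 libraries of *Spen* KO clone 2 mESCs. Both groups carry a transgene that expresses *Xist* under doxycycline, both come from a haploid line with a mixed genomic background, and both were grown on gelatin in serum with LIF, the cytokine that holds mESCs in self-renewal. No treatment is named in the labels. The *Spen* KO line is 1 clone with a deletion of *Spen*, which encodes an RNA-binding repressor protein, so any other difference between the clone and the WT line is part of each comparison. Whether the 2 libraries of a group came from separate cultures is not stated, and p-values then measure only the spread between libraries. In bulk RNA, fewer cells with a transcript and less of it per cell cannot be told apart.

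Clustered protocadherins are cadherin-like adhesion proteins best known from neurons, where each cell switches on a small set of them and uses the combination to tell its own branches from those of other cells. In the alpha and gamma clusters each promoter drives its own large first exon, which encodes the outer and membrane-spanning part of the protein. That exon is spliced to shared constant exons that encode the common tail. Beta genes have 1 large exon and no shared tail. Promoters are chosen through DNA methylation, the insulator protein CTCF and the cohesin ring, which brings enhancer and promoter together.

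This structure decides what a row of the count table holds. The annotation joins much of the alpha cluster into a row named *Pcdha11* (ENSMUSG00000007440.7), with 9 separate first exons ahead of 2878 bases of later exons. *Pcdha3* (ENSMUSG00000091969.1) is a row of its own, with 1 first exon and none of the constant exons. The gamma cluster has 1 row, named *Pcdhgc5* (ENSMUSG00000023036.7), with 9 separate first exons ahead of 2119 bases of later exons. RefSeq lists 14 alpha, 22 beta and 22 gamma genes for GRCm38.p6, 58 in all, against 25 rows here, so the gamma row holds only part of the variable exons of its cluster and the gamma levels and shares below rest on that part. The names *Pcdha11* and *Pcdhgc5* therefore stand below for merged rows and not for single isoforms. Which of the first exons was in use cannot be read from these counts, and *Pcdhac1*, *Pcdhac2*, *Pcdhgc3* and *Pcdhgc4* have no row of their own. On mm9 the alpha cluster spans 37089939 to 37347311, the beta cluster 37424652 to 37681073 and the gamma cluster 37833989 to 38001527 of chromosome 18, all on the plus strand.

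Total counts per library ran from 36667685 to 61908422, with the WT libraries shallower. *Spen* itself had 3716 and 3047 normalized counts in WT and 7797 and 6242 in the libraries labelled KO, so gene-level counts were higher where the label says knockout. Such counts do not show whether the deleted part is missing, so they neither test the labels nor go against them, and the KO libraries are called KO-labelled. All 8 pluripotency markers were detected, with summed normalized counts between 191485 and 207816 in the 4 libraries. Of the 11 neural markers 9 had a row, all with counts in at least 1 library, and summed to 9191 to 9876, of which *Tubb3* made up 7377 to 7817, with 2 higher (*Elavl3* and *Syn1*) and 1 lower (*Pax6*) at an adjusted p under 0.05. The 7 fibroblast markers, for feeder cells, summed to 175 and 196 in WT and 425 and 490 in KO-labelled libraries, most of it *Thy1*, which rose. *Col1a1* was at 27.8 and 21.8 against 49.6 and 47.7 (adjusted p = 0.188 in DESeq2 and 0.0399 in edgeR), *Col1a2* at 13.3 and 13.1 against 5.22 and 6.26, and *Col3a1* at 10.6 and 10.9 against 8.71 and 9.39, while *Dcn* and *Lum* were at 8.71 or less and at 0 in some libraries. The 7 primitive endoderm markers summed to 536 and 582 in WT and 286 and 246 in KO-labelled libraries, with *Gata4* and *Sox7* lower. The part of these differences in the values below was not tested.

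Most reads counted in the clustered protocadherin rows of these mESCs were in the gamma row. Gamma made up 96.1% and 96.5% of all clustered protocadherin counts in WT and 98.6% and 98.3% in KO-labelled libraries. These are shares of reads, and the gamma row is also long, with 28980 exonic bases. Per kb of exon, the gamma row stood at 96.7 and 97.6 normalized counts in WT and at 119 and 124 in KO-labelled libraries. The alpha rows together stood at 0.880 and 1.81 per kb in WT and at 0.481 and 0.635 in KO-labelled libraries. The 22 beta genes together stood at 1.13 and 0.681 per kb in WT and at 0.435 and 0.567 in KO-labelled libraries. The gamma level was thus 54.0 to 247 times the alpha level and 85.8 to 274 times the beta level within a library. Alpha and beta levels overlapped each other in both groups. By level per kb in WT, *Pcdhgc5* lay above 48.8% of protein-coding genes that had counts, *Pcdhb17* above 26.1% and *Pcdha11* above 11.8%. The lengths of *Pcdhgc5* and *Pcdha11* join 9 separate first exons each, while *Pcdhb17* has 1 exon of 3269 bases. An alpha or gamma transcript carries 1 first exon, so levels per kb and ranks of the merged rows come out low. Before division by length, *Pcdha11* had the higher mean normalized count in WT, 33.7 against 28.5 for *Pcdhb17*.

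**Figure D1:**
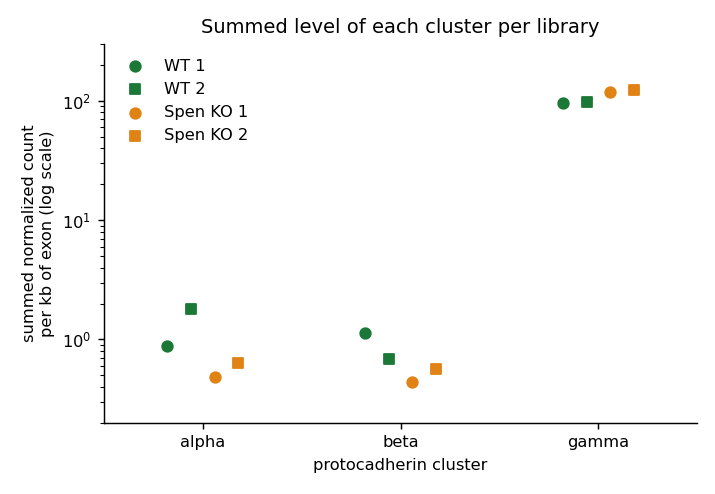
Summed normalized count per kb of exon (vertical log axis) for the alpha, beta and gamma clusters, with 1 point per library (green WT, orange *Spen* KO-labelled, circles replicate 1, squares replicate 2) and no averaging. Gamma lies between 96.7 and 124 in every library, while alpha and beta lie between 0.435 and 1.81.

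None of the 25 members was called, a call being a fold change of at least 2 with a DESeq2 adjusted p under 0.001, against 1.36% of all 17710 tested genes called higher and 3.15% called lower. edgeR's quasi-likelihood test, which kept 3 members, called 0 as well, against 1.43% of its genes higher and 3.52% lower. Few members could have been called. Of the 25, 8 had no count in any library and 13 had too few counts for an adjusted p, which left 4 tested members. These were *Pcdha11*, *Pcdhb14*, *Pcdhb17* and *Pcdhgc5*. At an unadjusted p under 0.05, in either direction, there was 1 of the 17 members with counts by DESeq2, against 28% of all genes with counts, and 3 of the 3 kept by edgeR, against 48.9% of its genes.

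*Pcdhgc5*, the gamma row, was the member that rose at an adjusted p under 0.05. Gamma protocadherins are needed for the survival of many neurons, and the C-type isoforms at the end of the cluster are expressed more widely than the others. Normalized counts of the row were 2803 and 2829 in WT and 3452 and 3606 in KO-labelled libraries. Both KO-labelled libraries lay above both WT libraries, and the gap was larger than the spread within either group. The means were 2816 ± 18.7 and 3529 ± 109 (SD, n = 2). This was a fold change of 1.25, or 0.33 ± 0.08 (SE) on the log2 scale, and the DESeq2 adjusted p was 0.000696. Its 95% interval of 0.16 to 0.49 lies below a 2-fold change. Of all tested genes 16.4% were higher and 15.8% lower at an adjusted p of less than 0.05, beside 1 and 0 of the 4 tested members. The adjusted p was no longer under 0.05 when the median change of each chromosome was removed, where the log2 fold change was 0.20 (DESeq2 adjusted p = 0.0687), and without KO-labelled replicate 2, where it was 0.30 (DESeq2 adjusted p = 0.0762). In the gamma row 1647 exonic bases overlap *Gm16882*, a non-coding gene on the other strand that had 62.3 and 94.7 normalized counts in WT and 58.3 and 86.1 in KO-labelled libraries. Its groups overlapped (log2 fold change -0.12 ± 0.42, SE, DESeq2 adjusted p = 0.870).

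*Pcdha11*, the merged alpha row, had few reads. Alpha protocadherins reach the cell surface with the help of beta or gamma partners, and serotonergic axons need them to spread through their targets. The row had 18 and 40 counts in WT and 15 and 22 in KO-labelled libraries, or 23.9 and 43.6 against 13.1 and 17.2 normalized counts. The KO-labelled libraries were lower, but the 2 WT libraries differed from each other by more than the nearer WT and KO-labelled libraries did. On the log2 scale this was -1.16 ± 0.70 (SE), with a 95% interval of -2.53 to 0.22 and adjusted p of 0.216 in DESeq2 and 0.0539 in edgeR. Without WT replicate 2 it was -0.65. In 2790 of its 24688 exonic bases the row overlaps *Gm10545* on the other strand. *Pcdha3* had 5 counts in WT replicate 2 and 0 in the other libraries.

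**Figure D2:**
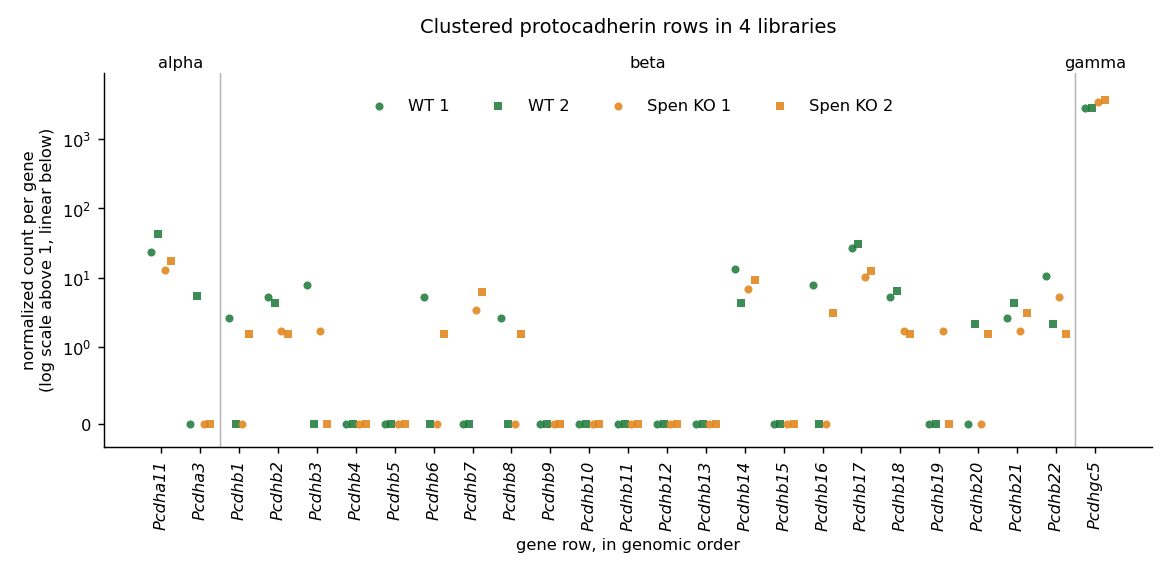
Normalized counts of all 25 clustered protocadherin rows (vertical axis, log scale above 1 and linear below) in genomic order, with 1 point per library (green WT, orange *Spen* KO-labelled, circles replicate 1, squares replicate 2). *Pcdhgc5* lies between 2803 and 3606, *Pcdha11* and *Pcdhb17* lie between 10.4 and 43.6, and 8 beta genes lie at 0 in every library.

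In the beta cluster most genes were at or near 0. Of the 22 genes, 8 (*Pcdhb4*, *Pcdhb5*, *Pcdhb9*, *Pcdhb10*, *Pcdhb11*, *Pcdhb12*, *Pcdhb13* and *Pcdhb15*) had no count in any library. A count of 0 allows up to 3 counts, or 0.0818 CPM (a count scaled to the library total) in the shallowest library and 0.0485 in the deepest, for counting error alone. They were of like length to the rest, with a median of 3294 exonic bases against 3472 for the 14 beta genes with counts. At most 4.05% of the 75-base windows in the exons of any of them have an exact copy elsewhere in mm9, against at most 4.02% in the others. In the order of the genes along the chromosome those without counts formed 2 runs, *Pcdhb4* to *Pcdhb5* and *Pcdhb9* to *Pcdhb13*, with *Pcdhb15* apart. The genes with the most reads, *Pcdhb17*, *Pcdhb14* and *Pcdhb22*, all lie after *Pcdhb13*. *Pcdhb20* is annotated as a pseudogene.

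*Pcdhb17* was the strongest beta gene. It had 20 and 28 counts in WT and 12 and 16 in KO-labelled libraries, which gave 26.5 and 30.5 against 10.4 and 12.5 normalized counts. Both KO-labelled libraries lay below both WT libraries, with means of 28.5 ± 2.81 and 11.5 ± 1.47 (SD, n = 2). On the log2 scale the change was -1.31 ± 0.75 (SE), with a 95% interval of -2.78 to 0.16 and a DESeq2 adjusted p of 0.185. edgeR gave -1.32 with an adjusted p of 0.0330, past 0.05, a threshold that 21.6% of its tested genes passed as lower. Whether *Pcdhb17* passed 0.05 therefore depends on the test.

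*Pcdhb14* had 10 and 4 counts in WT and 8 and 12 in KO-labelled libraries, and the groups overlapped. Its log2 fold change was -0.09 ± 1.17 (SE, DESeq2 adjusted p = 0.969), and its 95% interval of -2.37 to 2.19 leaves room for a 4-fold change either way. *Pcdhb22* had 8 and 2 counts in WT and 6 and 2 in KO-labelled libraries, also with overlap. The other 19 beta genes never exceeded 8 counts in a library. Among them *Pcdhb2* had 4 and 4 counts in WT and 2 and 2 in KO-labelled libraries, and *Pcdhb18* had 4 and 6 against 2 and 2. *Pcdhb7* had the opposite order, with 0 and 0 counts in WT and 4 and 8 in KO-labelled libraries (unadjusted p = 0.0789 in DESeq2). These 3 genes were chosen after their values were seen. Counts of this size are too few to give a fold change.

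Of the 14 beta genes with counts, KO-labelled libraries lay wholly below WT in 3 and wholly above in 1, against 28.7% and 28.5% of all genes with at least 1 count. The fitted log2 fold change was below 0 in 12 and above 0 in 2 of the 14. Over all genes with a mean normalized count under 10, 52.7% had a value below 0. *Pcdhb17* lies outside that set, with means of 28.5 in WT and 11.5 in KO-labelled libraries. In *Pcdhb1*, *Pcdhb8* and *Pcdhb20* each group held 2 counts, so the sign came from the size factors alone. The signs were not tested. Summed over the cluster, beta normalized counts were 90.2 and 54.4 in WT and 34.8 and 45.4 in KO-labelled libraries, a log2 ratio of means of -0.85 that was -0.44 without WT replicate 1. Alpha sums were 23.9 and 49.0 in WT and 13.1 and 17.2 in KO-labelled libraries, a log2 ratio of -1.27 that moved to -0.65 without WT replicate 2. In both sums the KO-labelled libraries were lower and the groups did not overlap, while the size of each ratio rested on 1 WT library.

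Small counts were even more often than large ones. All 39 nonzero counts of beta genes were even numbers. Over all genes, 65.3% of counts from 1 to 20 were even, and 60.3% in genes with 1 annotated exon, as most beta genes are, against 50.4% of counts of at least 1000. How read pairs were counted is not stated. If each read of a pair was counted singly, a count of 4 stands for 2 RNA fragments, and the limits above, which treat counts as separate, are too narrow.

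Genes around the clusters were compared with the gamma row. Within 500000 bases of the clusters lie 44 other genes. Of the 36 that were tested, 15 were higher and 0 lower at a DESeq2 adjusted p under 0.05, or 41.7% higher against 16.4% of all genes. For the rest of chromosome 18 the share was 23.5%. In the 28 neighbours whose mean normalized count reached 50, the log2 fold change had a median of 0.34. The same median was 0.11 in the rest of the chromosome and 0.03 in all genes. The 0.33 of *Pcdhgc5* thus equals the median of its neighbours to within its standard error. With chromosome medians removed the median of these 28 was 0.21 and *Pcdhgc5* was at 0.20. The neighbours that rose lie on both sides of the clusters, 10 before alpha and 5 after gamma. With chromosome medians removed 10 were higher and 2 lower, and with single libraries left out 9 to 12 were higher.

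The genes nearest to the gamma cluster did not pass the test. *Taf7*, a subunit of the general transcription factor TFIID that sits between beta and gamma, had 6817 and 6800 normalized counts in WT and 6771 and 6341 in KO-labelled libraries (log2 fold change -0.05 ± 0.07, SE, DESeq2 adjusted p = 0.645). *Diap1*, an actin nucleator just after gamma, had 10001 and 10299 in WT and 10086 and 11001 in KO-labelled libraries (0.05 ± 0.07, SE, DESeq2 adjusted p = 0.638). The next gene, *Hdac3*, the deacetylase of the corepressor complex that Spen recruits, had 3162 and 3334 in WT and 4002 and 4187 in KO-labelled libraries and rose by 0.33 ± 0.08 (SE, DESeq2 adjusted p = 0.000402). These 3 genes were chosen after their values were seen.

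**Figure D3:**
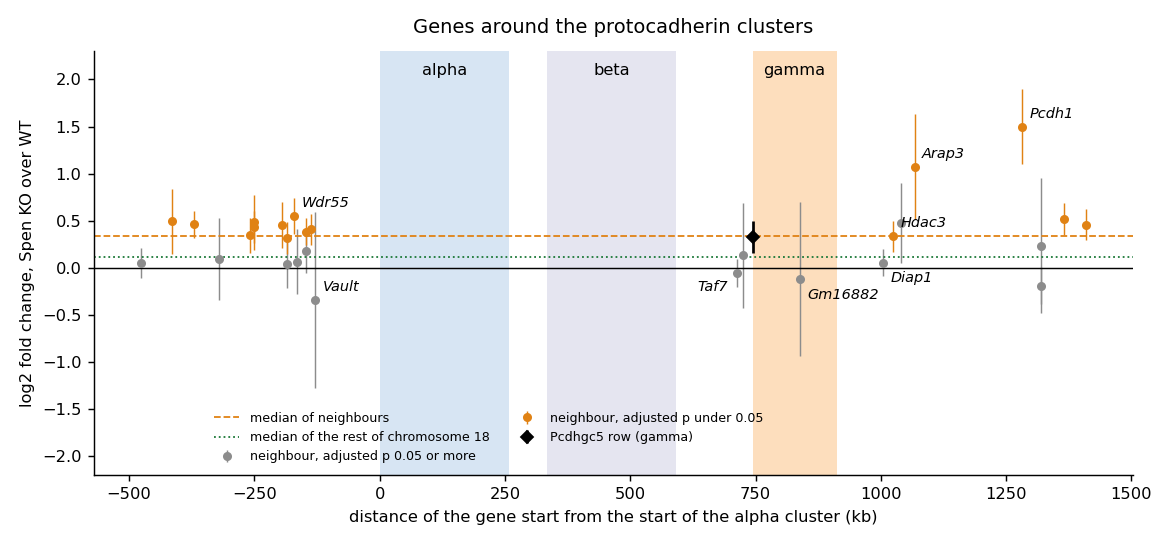
Log2 fold change (KO-labelled over WT, bars 95% intervals) of 28 neighbouring genes (those whose mean normalized count reached 50) and of the gamma row (black diamond, drawn at the cluster's start), by distance of the gene start from the start of the alpha cluster in kb; shaded bands are the clusters and orange points have an adjusted p under 0.05. The gamma row lies on the neighbours' median of 0.34 (dashed), above the 0.11 of the rest of the chromosome (dotted), and *Pcdh1* is highest at 1.496.

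Of the 36 tested neighbours 2 were called higher, against 1.36% of all genes and 6 of 414 tested genes on chromosome 18. *Pcdh1*, a protocadherin outside the clusters that mediates adhesion in epithelia, had 220 and 168 normalized counts in WT and 514 and 576 in KO-labelled libraries. Every KO-labelled value was above every WT value, and the gene rose by 1.496 ± 0.204 on the log2 scale (SE, DESeq2 adjusted p = 5.03e-12). *Arap3*, a GTPase-activating protein of the cell membrane and cytoskeleton, had 103 and 123 in WT and 278 and 200 in KO-labelled libraries (log2 fold change 1.07 ± 0.28, SE, DESeq2 adjusted p = 0.000895). The call of *Arap3* at an adjusted p under 0.001 was lost in 3 settings where the log2 fold change stayed at 1.05 to 1.07. These were TMM factors (DESeq2 adjusted p = 0.00106), edgeR (adjusted p = 0.00105) and the replicate block (DESeq2 adjusted p = 0.0132). It was also lost with chromosome medians removed (log2 fold change 0.94, DESeq2 adjusted p = 0.00511). The log2 fold change of *Arap3* was 0.96 without WT replicate 1 and 0.83 without KO-labelled replicate 1. Without WT replicate 2 it was 1.21, and without KO-labelled replicate 2 it was 1.30.

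The rest of the protocadherin family was compared with the clustered genes from a list of 12 non-clustered members with 13 rows. Of these rows 3 had no counts and 5 were tested, with a median log2 fold change of -0.20 against 0.00 for all genes tested. Of the 5, 1 was called higher, against 1.36% of all genes, and 1 was lower at an adjusted p under 0.05, against 15.8%. *Pcdh1* was the called gene, and *Pcdh18* fell from 43.8 and 37.0 normalized counts in WT to 5.22 and 17.2 in KO-labelled libraries (log2 fold change -1.84 ± 0.73, SE, DESeq2 adjusted p = 0.0392). With any 1 library left out, or with the replicate number as a block, no row of the list was lower at that threshold. *Pcdh19*, whose human counterpart is an X-linked epilepsy gene, had 354 and 345 in WT and 311 and 300 in KO-labelled libraries (-0.20 ± 0.19, SE, DESeq2 adjusted p = 0.499). Both were chosen after their values were seen.

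Factors that act on protocadherin promoters or on chromosome architecture were all detected, the lowest being the germ cell paralogue *Ctcfl* with 19.9 to 31.6 normalized counts. Of 26 such genes 11 were higher and 3 lower at an adjusted p under 0.05, against 16.4% and 15.8% of all genes, with a median log2 fold change of 0.13. The count of higher genes fell to 6 with the replicate number as a block and to between 4 and 7 with single libraries left out. *Ctcf*, which binds beside most clustered protocadherin promoters, had 10675 and 10190 normalized counts in WT and 11589 and 12162 in KO-labelled libraries. It rose by 0.19 ± 0.07 (SE, DESeq2 adjusted p = 0.0267), and its adjusted p was above 0.05 in edgeR (0.0597), under each omission of a library, with the replicate block and with chromosome medians removed. The log2 fold change stayed between 0.155 and 0.229 in these settings except for 0.0835 with chromosome medians removed. The cohesin subunit *Rad21* had 15692 and 16395 in WT and 18073 and 18510 in KO-labelled libraries, and its adjusted p was above 0.05 under the same settings (0.19 ± 0.07, SE, DESeq2 adjusted p = 0.0159, edgeR 0.0502), with log2 fold changes of 0.162 to 0.225 except for 0.119 with chromosome medians removed. *Smchd1*, a chromatin protein that represses these clusters and the inactive X chromosome, had 5143 and 5355 in WT and 4974 and 5198 in KO-labelled libraries. The groups overlapped, at -0.05 ± 0.08 (SE, DESeq2 adjusted p = 0.721).

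*Dnmt3b*, the de novo methyltransferase that methylates clustered protocadherin promoters in the embryo, fell from 18744 and 19393 normalized counts in WT to 10685 and 11316 in KO-labelled libraries. The log2 fold change was -0.79 ± 0.07 (SE, DESeq2 adjusted p = 3.18e-29), which is short of 2-fold. Its cofactor *Dnmt3l* fell from 16448 and 15599 to 6470 and 6706 and was the called member of the list (-1.28 ± 0.07, SE, DESeq2 adjusted p = 1.59e-72). With chromosome medians removed *Dnmt3l* was at -0.94, under the 2-fold threshold. *Dnmt3a*, the other de novo enzyme, had 16732 and 15748 in WT and 15259 and 15965 in KO-labelled libraries, with overlap (-0.06 ± 0.07, SE, DESeq2 adjusted p = 0.599). *Dnmt1*, which maintains methylation through cell division, rose from 19708 and 19559 to 23642 and 25613 (0.33 ± 0.07, SE, DESeq2 adjusted p = 1.55e-05). *Setdb1*, an H3K9 methyltransferase, and *Wapal*, which releases cohesin from DNA, had log2 fold changes of 0.53 and 0.51. These last 4 genes were chosen after their values were seen.

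Partners of the protocadherin tail and the proteases that cut it gave 3 genes higher and 4 lower of 16 at an adjusted p under 0.05, against 16.4% and 15.8% of all genes, with a median log2 fold change of -0.07. The 3 higher became 1 with the replicate block or chromosome medians removed, 0 without WT replicate 2 and 1 without each other library. The 4 lower became 5 in edgeR, 6 with chromosome medians removed and 3 without WT replicate 1. The median turned to 0.02 with chromosome medians removed. *Marcks*, a membrane-bound actin regulator that acts downstream of gamma protocadherins in dendrites, was the called member. It had 2508 and 2570 normalized counts in WT and 1189 and 1269 in KO-labelled libraries (-1.05 ± 0.10, SE, DESeq2 adjusted p = 3.08e-24). With chromosome medians removed it was at -0.70, and without KO-labelled replicate 1 at -0.99, neither reaching 2-fold. The kinases *Ptk2b* and *Fyn* fell by 0.58 and 0.85 on the log2 scale, and *Ptk2*, the focal adhesion kinase that gamma protocadherins inhibit, was at 0.09 ± 0.08 (SE, DESeq2 adjusted p = 0.401). Those 3 were also chosen after their values were seen.

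Of 10 classical and type II cadherins 8 were tested. At an adjusted p under 0.05, 3 of them were lower and 0 higher, against 15.8% and 16.4% of all genes, with a median log2 fold change of -0.67. The 3 lower became 5 in edgeR and with chromosome medians removed, and 2 with the replicate block or any library left out. The median was -0.46 under the low-count filter. *Cdh13* fell from 26.5 and 30.5 normalized counts in WT to 3.48 and 1.57 in KO-labelled libraries (-3.51 ± 1.00, SE, DESeq2 adjusted p = 0.00220). *Cdh4* fell by 0.88 ± 0.19 on the log2 scale (SE, DESeq2 adjusted p = 3.49e-05). Both were chosen after their values were seen. *Cdh3*, or P-cadherin, was called, with 2457 and 2249 normalized counts in WT and 1089 and 1254 in KO-labelled libraries (-1.005 ± 0.110, SE, DESeq2 adjusted p = 4.46e-18). Without WT replicate 1 and without KO-labelled replicate 1 it was at -0.94 and -0.90, and with upper-quartile factors at -0.97, all under 2-fold. *Cdh1* (chosen after its values were seen), the E-cadherin that holds mESC colonies together, had 5184 and 5686 in WT and 4954 and 4484 in KO-labelled libraries (-0.20 ± 0.09, SE, DESeq2 adjusted p = 0.0539, edgeR 0.0328).

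**Figure D4:**
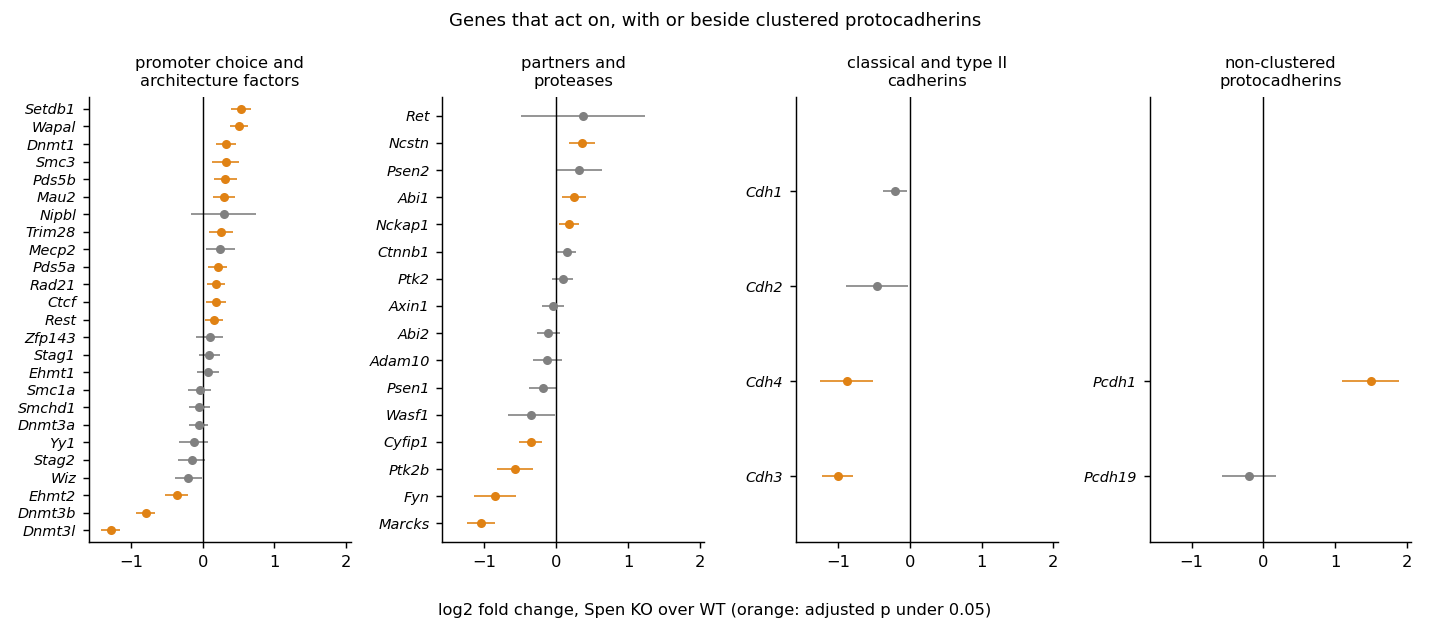
Log2 fold changes (KO-labelled over WT, horizontal axis, bars 95% intervals) of the genes in 4 lists whose WT and KO-labelled mean normalized counts add up to at least 100, ordered within each list; orange points have a DESeq2 adjusted p under 0.05. Among the genes drawn, *Dnmt3l*, *Marcks* and *Cdh3* lie lowest in their lists at -1.28, -1.05 and -1.005, and *Pcdh1* lies highest at 1.496. Genes under the limit of 100 are not drawn, among them *Cdh13* at -3.51.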

How the data were processed

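Members and gene lists were chosen with earlier results of these data known. The authors mapped paired 75-base reads of stranded, ribosomal RNA-depleted libraries to mm9 with STAR and deposited raw read counts per GENCODE vM1 gene from featureCounts, without normalization. Versions, the strand setting and the handling of read pairs and of reads with several matches are not given in the sources used here. Every column of the table was matched to a sample by name. Positions, exonic lengths and 75-base copies came from GENCODE vM1 and NCBIM37 (mm9).

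Counts of all genes were tested in R 4.3.3 by the Wald test of DESeq2 1.42.0 (group alone, default size factors, Benjamini-Hochberg adjustment over the table), after a check on simulated counts. Normalized counts are counts divided by DESeq2 size factors. Calls needed a 2-fold change at an adjusted p under 0.001, and "rose" or "fell" an adjusted p under 0.05. Named by rule were members with an adjusted p under 0.05, the 3 strongest per cluster, C-type members, called genes of the lists and of the neighbours within 500000 bases, and *Ctcf*, *Smchd1*, *Rad21* and *Dnmt3b*. Alternatives were TMM and upper-quartile factors, a filter of at least 10 counts in at least 2 libraries, edgeR 4.0.16, a replicate block, removal of chromosome medians and leaving out each library, where the lone library of a group is assumed to vary like the other group. Replicate numbers do not pair the libraries.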

Additional observations from a re-analysis of the deposited data

How the results depend on the processing

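No setting called a clustered protocadherin at a 2-fold change and an adjusted p under 0.001, in either direction, including TMM and upper-quartile factors, the low-count filter, edgeR, the replicate block, removal of chromosome medians and each omission of a library. Only 3 to 4 members were tested with all libraries and 1 to 2 with a library left out, so these counts say little about stability. At an adjusted p under 0.05, 1 member was higher (*Pcdhgc5*), and 0 were higher with chromosome medians removed (log2 fold change 0.20, DESeq2 adjusted p = 0.0687). Leaving out single libraries gave 0 to 1 members, with values of 0.30 to 0.36 for *Pcdhgc5*. Members lower at that threshold numbered 0, and 1 in edgeR (*Pcdhb17*). The replicate numbers did not pair the libraries (correlation of deviations -0.0177), and with the replicate block *Pcdhgc5* stayed at 0.33 (DESeq2 adjusted p = 0.0259). The summed gamma ratio of 0.33 became 0.363 with upper-quartile factors and 0.196 with chromosome medians removed, and ran from 0.297 to 0.364 with libraries left out. Over the same omissions the alpha ratio ran from -1.69 to -0.65 and the beta ratio from -1.16 to -0.44. *Pcdhb14* turned to 0.0651 with the replicate block, and leaving out libraries gave -0.692 to 0.914 for it and -2.01 to 0.64 for *Pcdhb22*. *Smchd1* turned to 0.0895 with chromosome medians removed. The medians removed ran from -0.35 on chromosome 10 to 0.38 on chromosome 19. The causes were not tested. The alpha and beta rows held at most 40 and 28 counts in a library, so a few counts decide each value.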
